A study of Mus musculus with 4 samples.

Results

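The metabotropic glutamate (mGlu) receptors are the G protein-coupled receptors for glutamate, the main excitatory transmitter of the cortex. The members described here are Grm2, Grm3, Grm4, Grm5, Grm7 and Grm8, chosen by gene symbol, and these 6 genes were found among the 17778 genes of the deposited table. The tissue was medial prefrontal cortex (mPFC), taken from both sides of the brain of male C57BL/6 mice (the substrain C57BL/6J in the methods of the study) that were juvenile when the procedure began. The CUMS group (2 libraries) came from mice that had lived through chronic unpredictable mild stress, a varying schedule of social isolation, restraint, tilted or damp cages, noise, strobe light and light-cycle disturbance, and that met the criteria of the study for a depression-like state in 3 behavior tests. Mice that stayed resilient were not used, so the group represents vulnerable animals. The control group (2 libraries) received no stress. No transgene or drug treatment was part of either group, apart from isoflurane anesthesia of all mice before the tissue was taken. RNA was isolated from each mouse separately. Whether a library was made from 1 mouse or from several is not stated in the sources used here.

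mGlu receptors fall into classes by sequence and signaling. Group I receptors, to which Grm5 belongs, sit mostly on the postsynaptic side and couple to Gq proteins, which activate phospholipase C and release calcium from stores. Group II receptors (Grm2 and Grm3) and group III receptors (Grm4, Grm7 and Grm8) couple to Gi/o proteins, which restrain adenylyl cyclase and calcium entry, and many of them sit on axon terminals where they damp transmitter release. In cortex, Grm2 is mainly neuronal, Grm3 is found in neurons and astrocytes, and Grm7 lies in the active zone of the terminal. The family has long been studied as a drug target in stress and mood disorders.

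The receptors are alike in sequence, and a short stretch of coding sequence makes the likeness visible across receptor groups. The stretch below surrounds the longest run of bases that any pair of members shares, 27 bases of Grm3 (group II) and Grm4 (group III). It is given as 57 bases on the coding strand, from the GENCODE M21 transcript with the longest coding sequence, with capitals where both genes have the same base.
Grm3: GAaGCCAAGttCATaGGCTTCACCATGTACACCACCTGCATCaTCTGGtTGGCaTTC
Grm4: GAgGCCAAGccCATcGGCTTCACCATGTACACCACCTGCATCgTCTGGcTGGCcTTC

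In each gene this stretch lies inside 1 coding exon. On GRCm38, the build called mm10 in the study, the places are chr5:9511494-9511550 (minus strand) for Grm3 and chr17:27434572-27434628 (minus strand) for Grm4. Over the whole coding sequence, identity between members followed the receptor groups. It was 67.1% for Grm2 with Grm3, 68.8% for Grm4 with Grm7, 67.7% for Grm4 with Grm8 and 69.8% for Grm7 with Grm8, whereas the pairs from different groups ranged from 54.8% to 58.3%. No pair shared a window of 100 bases, about the length of the reads, with 3 or fewer mismatches, and the closest windows differed at 13 bases (Grm2 and Grm3). Reads from the coding sequence of these members can therefore be told apart under the mismatch limit that the study gives.

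The genes differ far more in size than in coding sequence. Grm2 (gene 108068, chromosome 9, 106644534 to 106656109) spans 11.6 kb, Grm4 (gene 268934, chromosome 17, 27422387 to 27513826) 91.4 kb and Grm3 (gene 108069, chromosome 5, 9485236 to 9725352) 240 kb. Grm5 (gene 108071, chromosome 7, 87583981 to 88135063) spans 551 kb. Grm8 (gene 14823, chromosome 6, 27275121 to 28135146) and Grm7 (gene 108073, chromosome 6, 110645349 to 111567230) share a chromosome and span 860 kb and 922 kb. GENCODE places no other gene over Grm2 and 1 to 6 genes over the span of each other member, and 0 of these have a row in the deposited table.

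Levels were given as RPKM, read numbers scaled to gene length and library size, averaged by the authors within each group. The table therefore held a control mean and a CUMS mean per gene, with no value for a library, so that the variation among mice is not known and the differences below have no replicate check. Errors are 95% intervals for counting alone, exact except for sums and for differences between members, which use a normal approximation. They rest on an estimated depth of 7385524 fragments in a control and 7440476 in a CUMS library, fewer than the read numbers of the study would give for reasons not resolved, and on 203 to 1574 fragments per member and group. All 6 members passed the minimum of 0.5 RPKM in either group, as did 14257 genes in all.

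Group II receptors were higher in CUMS. Grm3 had the largest fold difference of the family, but counting did not tell it apart from Grm2 or Grm8. The difference of log2 ratios was -0.11 for Grm2 minus Grm3 (-0.30 to 0.08) and 0.12 for Grm3 minus Grm8 (-0.18 to 0.42). Grm2 could not be ranked above Grm8, with a difference of log2 ratios of 0.01 (-0.28 to 0.30). Grm2 was 20.1 RPKM in control (counting interval 18.9 to 21.4) and 25.6 RPKM in CUMS (24.2 to 27.0). Grm3 was 12.4 RPKM in control (11.5 to 13.4) and 17.0 RPKM in CUMS (15.9 to 18.2). For both genes the CUMS interval lay wholly above the control interval. The difference was 1.27-fold for Grm2, a log2 ratio of 0.35 (0.23 to 0.47), and 1.37-fold for Grm3, a log2 ratio of 0.45 (0.31 to 0.60). Grm2 and Grm3 together made up 32.6 RPKM in control and 42.6 RPKM in CUMS, a log2 ratio of 0.39 (0.30 to 0.48). The balance within the pair was similar, with Grm2 at 61.8% of the sum in control and 60.0% in CUMS.

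Among group III receptors, Grm7 and Grm8 were higher in CUMS and Grm4 was lower. Grm7 was 10.7 RPKM in control (9.87 to 11.5) and 12.4 RPKM in CUMS (11.6 to 13.4), a log2 ratio of 0.22 (0.07 to 0.38). Grm8 was 3.73 RPKM in control (3.23 to 4.27) and 4.71 RPKM in CUMS (4.16 to 5.32), a log2 ratio of 0.34 (0.07 to 0.61). The level intervals of Grm8 in the 2 groups overlapped slightly. Grm8 rests on the fewest fragments of all members, 203 in control and 259 in CUMS.

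Grm4, also a presynaptic receptor of group III, was 10.0 RPKM in control (9.12 to 11.0) and 7.98 RPKM in CUMS (7.16 to 8.84), a log2 ratio of -0.33 (-0.54 to -0.13), which is 0.794 of the control level. Grm4 supplied 41.1% of the summed group III level in control and 31.7% in CUMS, while the share of Grm7 was 43.6% and 49.5% and that of Grm8 15.3% and 18.7%. With members on both sides of 0, the sum of the 3 genes was 24.4 RPKM in control and 25.1 in CUMS, a log2 ratio of 0.04 (-0.07 to 0.15).

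Grm5, the group I member, was 12.6 RPKM in control (11.96 to 13.2) and 12.5 RPKM in CUMS (11.9 to 13.1). Its log2 ratio of -0.01 (-0.11 to 0.09) had a counting interval on both sides of 0, so that no direction can be given, and it was 0.0042 when CUMS was rescaled to a median ratio of 0. Grm5 had the most fragments of the family, 1574 in each group, and the interval leaves room for a difference of about 0.1 on the log2 scale in either direction.

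**Figure D1:**
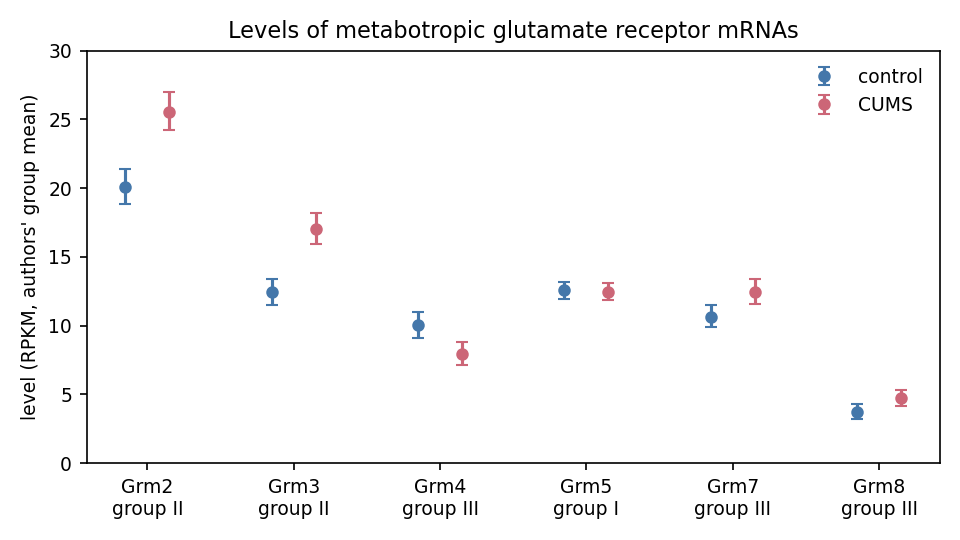
Level of each receptor mRNA in RPKM (vertical axis, linear) in control (blue) and CUMS (red), as the authors' mean over 2 libraries with the 95% counting interval as bar. The intervals of Grm2, Grm3 and Grm7 lie higher in CUMS, that of Grm4 lies lower, and those of Grm5 nearly coincide.

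None of the members passed the fold threshold of the study. Of the 6 genes, 0 were more than 1.5-fold higher and 0 more than 1.5-fold lower in CUMS, where 2.78% and 4.42% of the 14257 genes did so. The differences nevertheless exceeded counting error in 5 of 6 members. The counting interval lay above 0 in 4 (Grm2, Grm3, Grm7 and Grm8), against 12.5% of all genes, and below 0 in 1 (Grm4), against 16.8% of all genes. Well-sequenced genes leave 0 more readily than others at the same fold, and these shares say nothing of differences between mice. The median log2 ratio of the members was 0.28, and that of all genes was -0.015. Among 7742 genes with a geometric mean level of 3 to 30 RPKM, which spans the members, the median was -0.019 and the median absolute log2 ratio 0.12. In the order of log2 ratios of all genes, Grm3 stood at the 95.8th percentile, Grm2 at the 93.2nd, Grm8 at the 92.8th, Grm7 at the 87.1st, Grm5 at the 50.9th and Grm4 at the 10.8th.

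**Figure D2:**
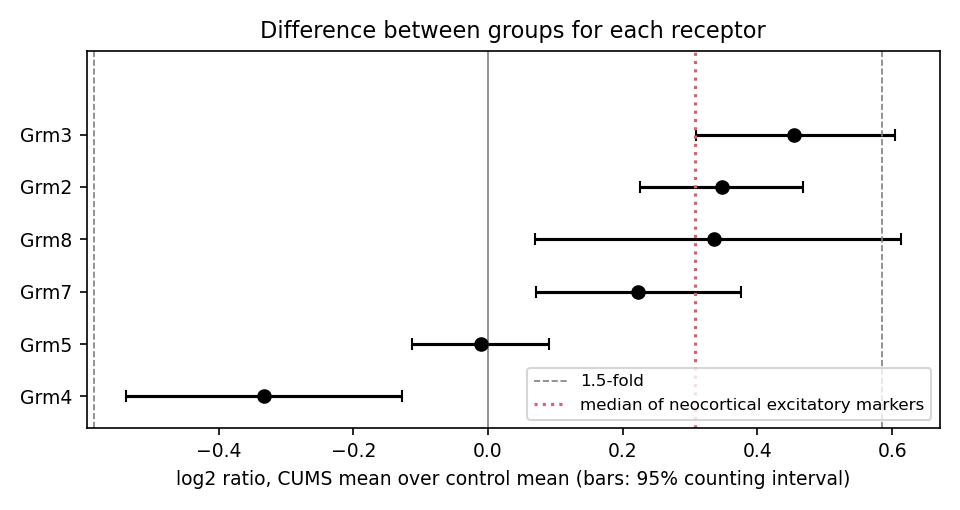
Log2 ratio of CUMS to control means for each receptor (horizontal axis), with 95% counting intervals as bars, the 1.5-fold limits as dashed lines and the median of neocortical excitatory neuron markers (0.31) as a dotted line. Grm3, Grm2, Grm8 and Grm7 lie above 0, Grm5 lies at 0 and Grm4 lies below 0.

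The members were compared with each other to see which differences can be told apart by counting. Of 15 pairs, 10 had a difference of log2 ratios whose interval excluded 0. Grm4 differed from each of the other 5 members, each of which had the higher ratio. The difference was 0.79 for Grm3 minus Grm4 (interval 0.54 to 1.03) and 0.68 for Grm2 minus Grm4 (0.44 to 0.91). It was -0.67 for Grm4 minus Grm8 (-0.9999 to -0.33), -0.56 for Grm4 minus Grm7 (-0.81 to -0.30) and -0.32 for Grm4 minus Grm5 (-0.55 to -0.10). Grm5 also lay under each of the 4 higher members. Among those 4 only Grm3 and Grm7 could be told apart, with a difference of 0.23 (0.02 to 0.44). The interval was -0.30 to 0.08 for Grm2 minus Grm3 and -0.42 to 0.19 for Grm7 minus Grm8, so that differences of that size within a receptor group were not excluded.

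The order of the levels was Grm2, Grm5, Grm3, Grm7, Grm4 and Grm8 in control. Grm2 was 1.60 times Grm5 (1.48 to 1.73), and Grm4 was 2.69 times Grm8 (2.28 to 3.20). Grm5 and Grm3 (ratio 1.01, 0.923 to 1.11) and Grm7 and Grm4 (1.06, 0.941 to 1.20) could not be told apart by counting. In CUMS the order was Grm2, Grm3, Grm5, Grm7, Grm4 and Grm8. Grm3 now stood at 1.36 times Grm5 (1.26 to 1.48), Grm7 at 1.56 times Grm4 (1.38 to 1.78), and Grm5 and Grm7 could not be told apart (0.919 to 1.09). Levels between genes depend on the gene length used. With the longest GENCODE coding transcript in place of the deposited length, Grm3 (14.4), Grm2 (14.3) and Grm5 (13.2 RPKM) were the highest in control. The ratio between groups is free of this choice.

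The sum of the 6 receptors was 69.6 RPKM in control and 80.2 in CUMS, a log2 ratio of 0.21 (0.14 to 0.27). Grm2 held the largest share of it in both groups, 28.9% and 31.9%. The share of Grm3 was 17.9% and 21.2%, that of Grm5 18.1% and 15.6%, that of Grm7 15.3% and 15.5%, that of Grm4 14.4% and 9.94%, and that of Grm8 5.36% and 5.86%.

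**Figure D3:**
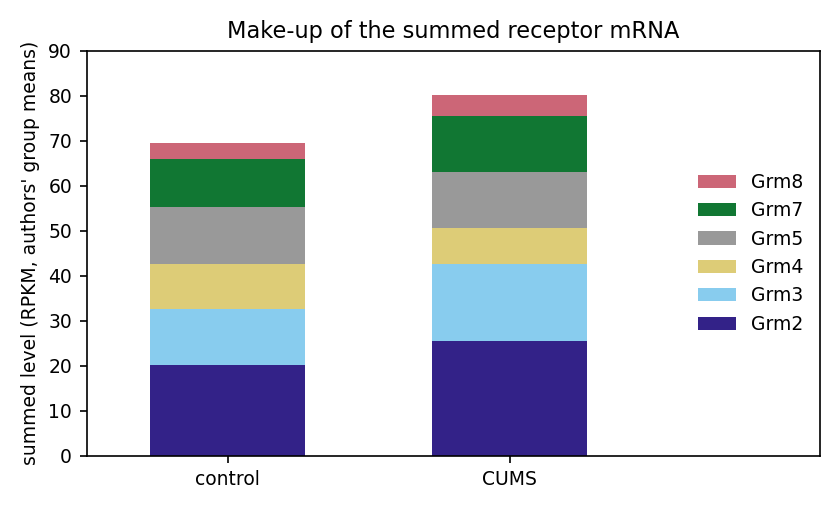
Summed level of the 6 receptors in RPKM (vertical axis, from 0), stacked by gene, in control and CUMS. The total is 69.6 in control and 80.2 in CUMS, and the blocks of Grm2 and Grm3 account for most of the added height.

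Promoter sequences were read for the members found in the RefSeq table of GRCm38.p6, which were Grm2, Grm3, Grm7 and Grm8 (7 promoters, of which the 2 of Grm7 overlap). Grm4 and Grm5 had no entry. The 250 bases before the start are shown for the group II pair. Capitals mark GC boxes (GGGCGG on either strand), the short motif that Sp-family factors bind.
Grm2 (chr9:106656110-106656359, minus strand): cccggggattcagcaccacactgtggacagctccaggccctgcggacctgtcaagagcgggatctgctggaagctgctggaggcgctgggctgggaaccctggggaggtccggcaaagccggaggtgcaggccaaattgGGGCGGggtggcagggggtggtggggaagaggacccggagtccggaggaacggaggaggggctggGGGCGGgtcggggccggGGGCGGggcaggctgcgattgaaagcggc
Grm3 (chr5:9725353-9725602, minus strand): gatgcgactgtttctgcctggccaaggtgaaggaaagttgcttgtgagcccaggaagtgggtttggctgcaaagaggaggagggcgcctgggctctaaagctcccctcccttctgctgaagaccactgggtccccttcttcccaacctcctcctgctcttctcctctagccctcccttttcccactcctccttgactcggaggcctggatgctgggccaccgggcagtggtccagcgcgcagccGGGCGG

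The Grm2 window holds 3 GC boxes, 16 CpG dinucleotides and 71.2% G and C. The Grm3 window holds 1 GC box, 8 CpG dinucleotides and 62.4% G and C. A GC box was also present in both Grm7 windows and in 1 of 3 Grm8 windows, and 32.7% of 32851 promoter windows in the table hold at least 1. The median window has 52.4% G and C and 6 CpG dinucleotides. The letters of a TATA box (TATAAA, in 12.4% of all windows) and of the EGR motif (GCGGGGGCG, in 2.57%) were in none of the 7 windows on either strand. The core of the cyclic AMP response element (TGACG, in 17.8%) was in 1 Grm8 window.

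The G proteins and effectors behind the receptors were examined as lists, on the same scale of log2 ratios. In the Gq arm, 4 of 8 genes had an interval above 0 and 1 below 0, and the median was 0.09. The lowest log2 ratio was that of Plcb4 (-0.35), a phospholipase C. In the Gi/o arm, 5 of 13 genes had an interval above 0 and 4 below 0, with a median of 0.09. Its ends were Kcnj9 (0.18), a subunit of the potassium channels that Gi/o proteins open, and the adenylyl cyclase Adcy8 (-0.35). In either arm 0 genes passed 1.5-fold.

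Scaffolds and regulators of the receptors had intervals on both sides of 0. Of 13 genes, 2 had an interval above 0 and 4 below 0, and the median was -0.05. The highest was Rgs4 (0.38), which speeds the shut-off of Gq and Gi/o signals, and the lowest was Homer2 (-0.28). Homer proteins tie group I receptors to calcium stores and to the postsynaptic density, and Homer1, from which a short activity-induced form is also made, had a log2 ratio of -0.20 (-0.32 to -0.09). The trans-synaptic partner Elfn1, a postsynaptic protein that recruits Grm7 to terminals on certain interneurons, had a mean of 13.6 RPKM in control and of 11.6 in CUMS, a log2 ratio of -0.23 (-0.38 to -0.08). Elfn2 had a log2 ratio of -0.03 (-0.10 to 0.05).

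The supply of the agonists was examined as well. Of the enzymes of NAAG, a peptide transmitter that acts on Grm3, 3 of 4 genes passed the minimum of 0.5 RPKM, and 0 had an interval off 0. Folh1, which breaks NAAG down, was 0.975 RPKM in control and 0.635 in CUMS, a log2 ratio of -0.62 (-1.34 to 0.13). It passed 1.5-fold, but counting error alone can give that difference. Rimklb, a NAAG synthetase, had the highest log2 ratio (0.04). Of 6 genes of glutamate uptake and turnover, 4 had an interval above 0 and 1 below 0, with a median of 0.07. Glul, which makes glutamine in astrocytes, had the lowest log2 ratio (-0.22).

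The ionotropic glutamate receptors were looked at beside them. Of 10 AMPA and NMDA receptor subunits over the minimum, 0 had an interval above 0 and 3 below 0 (median -0.03). The subunits at the ends were Gria4 (0.11) and Grin2d (-0.45). Of 7 kainate and delta receptor subunits, 1 had an interval above 0 and 0 below 0 (median 0.02), and the ends were Grik4 (0.12) and Grik1 (-0.21). In the mGlu receptors the median was 0.28, with 4 of 6 intervals above 0. The differences between these lists were not tested, since the members of a list are no replicates. Of the other class C receptors, the structural relatives of the mGlu receptors, 5 of 8 passed the minimum. Gabbr2, a subunit of the GABA-B receptor, had the highest log2 ratio (0.29, 0.23 to 0.35) and its partner Gabbr1 was near 0 (-0.03, -0.06 to 0.01), while Gprc5b had the lowest (-0.38, -0.45 to -0.31).

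**Figure D4:**
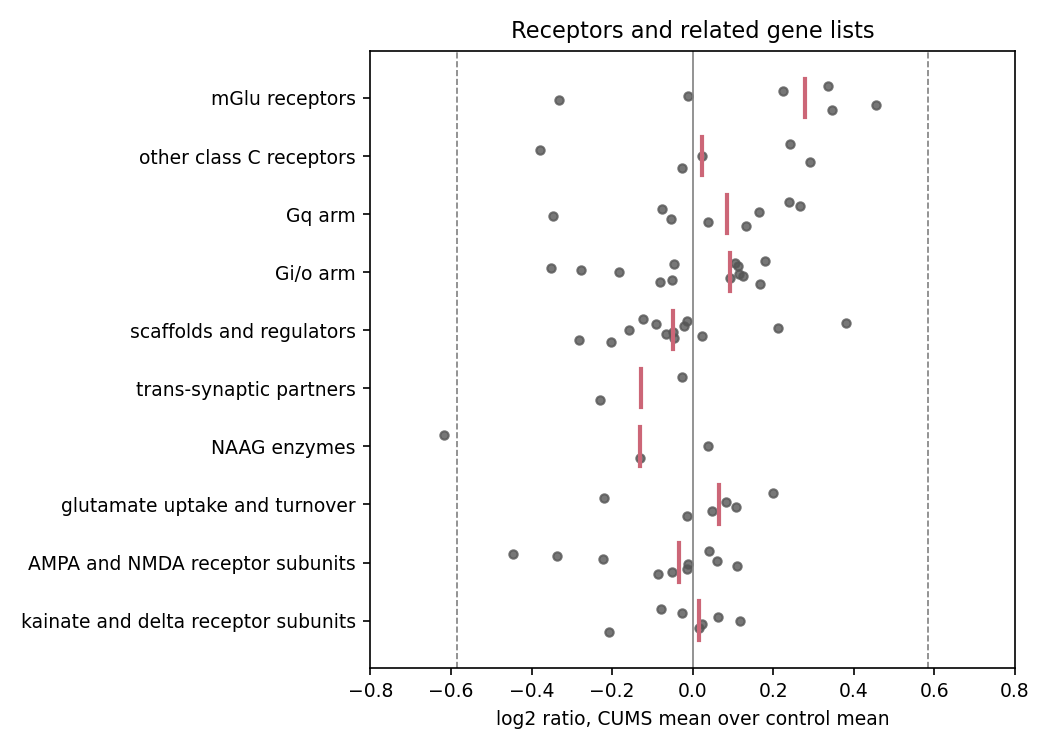
Log2 ratio of CUMS to control means (horizontal axis) for each gene of at least 0.5 RPKM (dots) in the receptor family and in lists of related genes, with list medians as red bars and the 1.5-fold limits as dashed lines. The median of the mGlu receptors is 0.28 and those of the other lists range from -0.13 to 0.09.

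Markers of cell types and regions also differed between the groups. In bulk tissue, fewer cells of a type and less RNA per cell cannot be told apart. The tissue carried the markers of neocortical excitatory neurons at high levels, and 8 of 8 were higher in CUMS, with every counting interval above 0, a median log2 ratio of 0.31 and a sum of 1574 RPKM in control and 1887 RPKM in CUMS. Relative to that median, Grm2 lay 0.04 above, Grm8 0.03 above, Grm3 0.15 above and Grm7 0.08 below. Grm5 and Grm4 lay lower than it by more, at -0.32 and -0.64. The part of this list in the receptor differences was not tested.

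Markers of other brain regions were mostly lower in CUMS. The lists were chosen with earlier results of these data known, so their counts and sums are no independent evidence. They hold genes that the study itself reported as lowered: Th, Calb2, Doc2g, Magel2, Hap1, Zcchc12, Baiap3 and Prkcd. Olfactory bulb markers were lower in 8 of 8 genes, with a sum of 70.7 RPKM in control and 33.5 RPKM in CUMS. Striatum markers were lower in 8 of 8 genes (532 and 439 RPKM). Of 10 septum and hypothalamus markers, 7 passed the minimum and 6 of these were lower (214 and 125 RPKM over all 10). Most of that sum came from Hap1 (116 and 73.0 RPKM) and Zcchc12 (67.1 and 41.9 RPKM). The peptide gene Pmch was higher (0.445 and 0.71 RPKM), on 5 and 8 fragments. Of 4 thalamus markers Prkcd was lower (17.2 and 4.30 RPKM), and the intervals of the other 3 included 0. Grm4 was lower beside these lists, and the part of the lists in that value was not tested.

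Of glial markers, 3 of 9 astrocyte markers were higher and 6 lower, with a median of -0.17 and a sum of 785 RPKM in control and 690 RPKM in CUMS. Mature oligodendrocyte markers were lower in 7 of 7 genes (1866 and 1266 RPKM), and Mbp made up 1167 and 774 RPKM of these sums. Mbp, Mobp and Cldn11 of this list are also among the genes that the study reported as lowered. Grm3 was higher beside an astrocyte list with values on both sides of 0. The part of astrocytes in the Grm3 value was not tested. Microglia markers had a median of 0.01 over 6 genes. GABAergic neuron markers had a median of -0.43 over 7 genes, with 3 higher and 4 lower. Their sum was 642 RPKM in control and 555 in CUMS. Higher were Pvalb (0.19), Sst (0.05) and Vip (0.51), and of these only Vip had an interval above 0. Lower were Gad1 (-0.60), Gad2 (-0.88), Slc32a1 (-0.78) and Lhx6 (-0.43), each with an interval below 0. Gad1, Gad2 and Slc32a1 had been reported as lowered by the study, so this median is no independent evidence of fewer GABAergic neurons.

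**Figure D5:**
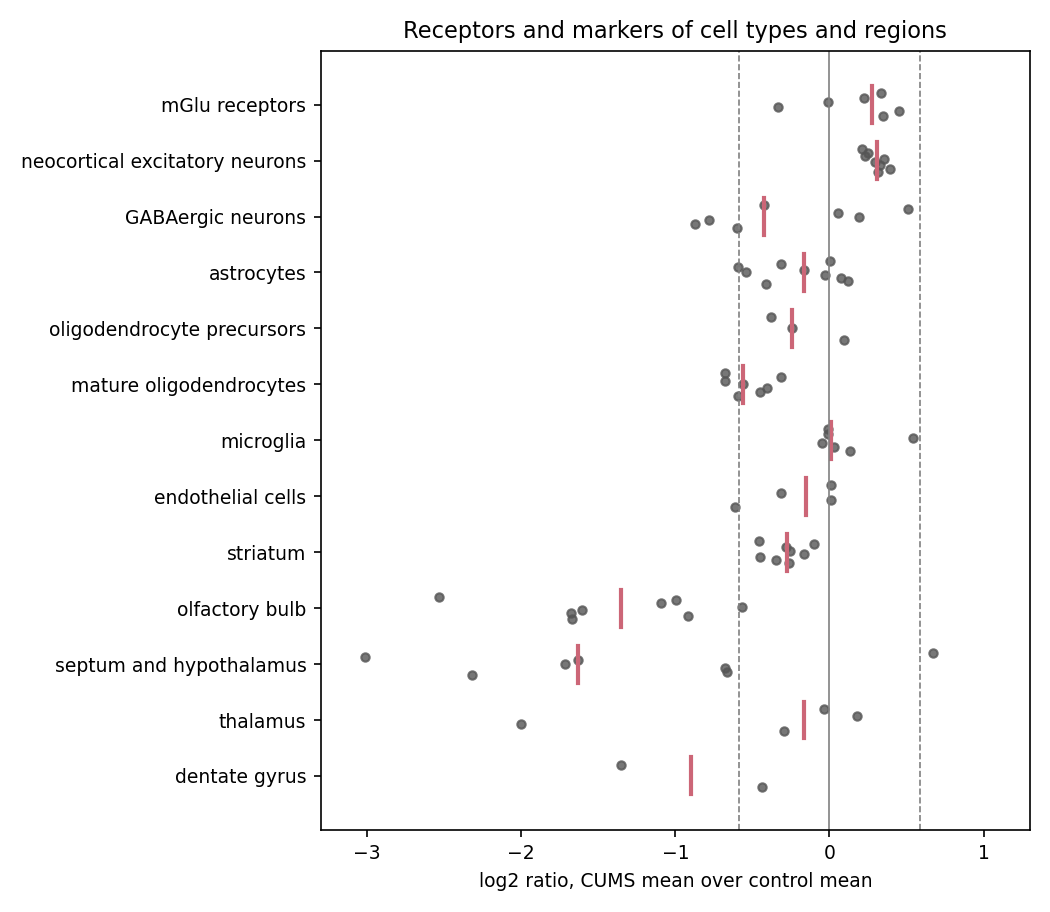
Log2 ratio of CUMS to control means (horizontal axis) for the mGlu receptors and for markers of cell types and regions of at least 0.5 RPKM (dots), with list medians as red bars and the 1.5-fold limits as dashed lines. Neocortical excitatory neuron markers lie between 0.21 and 0.39, where Grm2, Grm7 and Grm8 also lie, and olfactory bulb markers all lie under -0.5.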

How the data were processed

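mRNA was sequenced from the mPFC of control mice (2 libraries) and CUMS mice (2 libraries). The authors trimmed paired reads with SolexaQA, aligned them to mm10 with TopHat 1.0.12 and Bowtie 0.11.3 and counted uniquely aligned reads per gene. The annotation and the use of strand are not given in the sources used here. The deposited values were RPKM, averaged by the authors over the libraries of a group, with 0.01 as lowest value. The deposited columns with the authors' log2 ratio and their NOISeq score hold their own comparison and were not used. Another deposited column gives the gene length.

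Mean times gene length advances in equal steps, 1 for each fragment of a library. The step, fitted on genes under 1000 bases, was 67.7 in control and 67.2 in CUMS, and 86.5% and 86.2% of products lay within 0.15 of a whole step. Depth followed from it on the assumption of equal libraries. Intervals are Clopper-Pearson for ratios between groups and between neighbouring levels, exact Poisson for levels and a normal approximation for sums and pairs. They cover counting error only, and PCR duplicates could not be removed. The estimate lies under the read numbers of the study, and if the true depth was higher the intervals are too wide. The step fit, the intervals of ratios between groups and the calls past 1.5-fold were tested on simulated data (scipy 1.17.1, pandas 2.3.3). The simulated counts held counting error only, with no spread between mice. The other intervals and the sequence searches were not tested in this way. No test between groups was run, since the table holds group means.

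The members and gene lists were chosen with earlier results of these data known. Named were all members and, in each related list, the genes past 1.5-fold and the ends of the rest over 0.5 RPKM. Homer1 and Gabbr1 were named for their roles after their values were seen, and marker lists are given mostly as counts. Some items that the rule names are not reported here. Alternatives changed the fold, the filter, the pseudocount, the scaling, the depth and the gene length.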

Additional observations from a re-analysis of the deposited data

How the results depend on the processing

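No paired analysis was possible because libraries had been averaged by group, and fits that leave out a replicate could not be run for the same reason. At a lower fold threshold, passed by Grm8 (26.1% higher) and missed by Grm7 (16.7% higher), 4 members passed (Grm2, Grm3 and Grm8 higher, Grm4 lower), against 0 at 1.5-fold and 0 at 2-fold. Of the 24 log2 ratios of single members under 4 alternatives, 24 stayed within the counting interval. This is a weak check, since the alternatives moved the ratios little. The scalings shifted CUMS by only 0.015 (median) and -0.0076 (total) on the log2 scale. With halved fragment numbers 4 members kept an interval off 0, and Grm8 no longer did. With doubled numbers and under both scalings it was 5. The median log2 ratio ranged from 0.22 to 0.30. With the length of the longest GENCODE transcript, an alternative chosen after seeing the data, 3 of 6 members held their place in the order of levels, since only the length entered.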

Other observations

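For each member, the gene nearest to it in both group means was sought. With 2 means per gene this is a distance between levels and no pattern over samples. The nearest gene was Rasgef1b for Grm2 (distance 0.04 in log2 units), Rbp4 for Grm3 (0.023), Dmtf1 for Grm4 (0.016), Gart for Grm5 (0.0066), Uvrag for Grm7 (0.02) and Gm14440 for Grm8 (0.015).

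Oligodendrocyte precursors and vessels were the remaining cell types looked at. Of 3 precursor markers 1 was higher and 2 were lower, with a median log2 ratio of -0.24. Of 4 endothelial markers 2 had an interval below 0, and Cldn5, the tight junction protein of brain vessels, had the lowest log2 ratio (-0.61). The dentate gyrus markers that passed the minimum were Prox1 and C1ql2, at control levels of 0.995 and 1.15 RPKM. The log2 ratio of Prox1 was -0.44 with an interval that included 0 (-1.04 to 0.13). That of C1ql2 was -1.35 (-2.34 to -0.40), on 35 fragments in control and 14 in CUMS.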
